A study of Arabis alpina with 2 samples.

Results

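The sites described here were single-base variants at which far more reads piled up than elsewhere in the genome, in both libraries of the study. They were chosen as sites on chromosomes 1 to 8 that were listed at the same position with the same sample base in both variant lists and had a coverage of more than 200 reads in each. This gave 634 sites, of 8457 shared sites on the chromosomes and 9753 in all. Coverage and the listing in both libraries therefore chose the sites, and depths are given below as a description without a test.

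Arabis alpina is a perennial crucifer related to Arabidopsis, and the study sequenced its genomic DNA, taken from flower buds, to map a mutation. Both libraries had the Pajares background and came from plants grown in long days. The first was a pool of eop055BC1F2 plants: the mutant had been selfed, backcrossed to pep1-1, the line from which it was made, and selfed again, and plants were picked by phenotype. The second was pep1-1 itself, so both libraries carry the pep1-1 lesion in the flowering repressor PEP1, the FLC orthologue of this species. Each group had 1 library without a replicate, so every test compares the reads of these libraries and not the genotypes, and how many plants each held is not stated in the sources used here.

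Plant nuclear genomes carry sequences in many copies, among them tandem satellites near centromeres, arrays of ribosomal RNA genes, transposons, and stretches of plastid and mitochondrial DNA inserted into chromosomes. When an assembly holds fewer copies than the plant has, reads from all copies align to the few places that are present. Coverage then rises there, and bases that differ between copies are listed as variants whose frequency reflects the mix of copies and not a segregating allele. Genes and repeats at these positions were not analysed here, since no annotation or sequence of the assembly was used, so no cluster is given a repeat type. Positions are those of the authors' lists, both labelled V3.6, and the progenitor list also carries the label V2. The sources used here do not say what these labels name, and no genome was used, so no sequence is printed.

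Depth spanned a wide range. In the pool the members ran from 201 to 7185 reads, with a median of 1502 (interquartile range 371 to 3880). In the progenitor they ran from 201 to 7340 reads, with a median of 1426 (341 to 5884). The 7432 shared sites with 200 reads or fewer in both libraries, called ordinary sites below, had medians of 116 pool reads and 111 progenitor reads. By the lower of the 2 coverages, 222 members had over 200 to 500 reads, 62 over 500 to 1000, 95 over 1000 to 2000, 112 over 2000 to 4000 and 143 over 4000. The classes at either end were thus the largest, and the 3 between them held 269 members, 42.4%. Coverage at any listed site went up to 7250 reads for the pool and to 7340 for the progenitor. In the progenitor 128 members lay above 6500 reads, against 12 in the pool, so its deepest values were packed just below that maximum. Whether reads were counted only up to a depth limit is not stated in the sources used here, and if they were, the deepest progenitor coverages are too low.

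At the threshold, 6 members had 201 reads as the lower of their coverages, and the 3 with the smallest positions are given. C6600146A on chromosome 1 had 201 pool reads and 224 progenitor reads, G14071520A on chromosome 2 had 210 and 201, and A18568327C on chromosome 2 had 201 and 205. Just outside lay G6601774A, G6602396A and G6602397A, all on chromosome 1, with 200 reads each in the pool and 216, 209 and 206 in the progenitor. These 3 sites fall inside a cluster of members on that chromosome, so the threshold divided a single stretch. In all, 391 shared sites passed 200 reads in 1 library only, 162 in the pool and 229 in the progenitor.

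The members were packed into short stretches. Successive members on a chromosome were a median of 48 bases apart (interquartile range 16 to 158), and 461 of 626 gaps, 73.6%, were 150 bases or less. Neighbouring members can therefore be read from the same DNA fragments and are not independent of each other. Joined across gaps of at most 10000 bases, they formed 66 runs, of which 18 were single sites, 18 held 2 to 4 members, and 30 held at least 5 and are called clusters. The clusters held 565 members, 89.1%, in 113 kb altogether. They ran from 143 to 15949 bases, with a median of 1784. The 10 clusters with the most members held 353 of them, 55.7%.

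Clusters occurred on every chromosome, unevenly. Chromosome 7 had 156 members and 6 clusters, chromosome 2 had 106 and 7, chromosome 4 had 105 and 4, and chromosome 8 had 83 and 5. Chromosome 6 had 59 members and 3 clusters, chromosome 5 had 54 and 1, chromosome 3 had 44 and 2, and chromosome 1 had 27 and 2. The deepest site of each chromosome also differed widely. G32999908A on chromosome 7 was the deepest of all by its lower coverage, with 7039 pool reads and 6850 progenitor reads, followed by G14237344A on chromosome 2 (6848 and 6620). Next came T13741918G on chromosome 3 (5751 and 6832), T2430941C on chromosome 5 (5632 and 6815) and C12827137T on chromosome 6 (4721 and 4304). The remaining chromosomes were shallower, with A46586477G on chromosome 8 (4178 and 3542), T21300859G on chromosome 4 (2596 and 5204) and C5325515T on chromosome 1 (1356 and 1360). Some of these deepest sites had a variant quality under 25. It was 10.8 in the pool and 15.6 in the progenitor at G14237344A, and 13.6 and 5.07 at C12827137T. At G32999908A it was 19.5 in the pool and 44.0 in the progenitor.

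**Figure D1:**
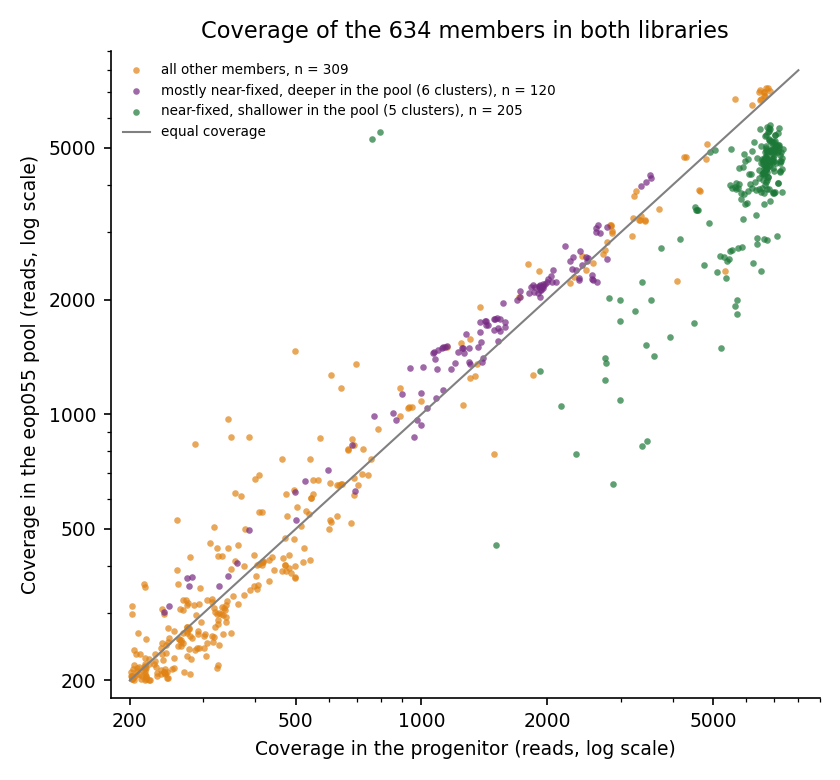
Coverage of each of the 634 members in the progenitor (x axis, reads, log scale) and in the eop055 pool (y axis, reads, log scale), with a line of equal coverage and colours for the groups of clusters described in the text. Of the 205 members in the green clusters 203 lie below the line, while 107 of the 120 members in the purple clusters lie above it.

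Allele frequencies of the members were shifted towards fixation. In the pool the middle value was 0.948, with an interquartile range of 0.632 to 0.982. In the progenitor it was 0.942, with a range of 0.636 to 0.993, and at ordinary sites it was 0.474 in each library. Near-fixed sites, at 0.9 or more in both libraries, made up 352 members, 55.5% (Wilson 95% interval 51.6 to 59.3%, covering counting error only), and 10.8% of ordinary sites (10.1 to 11.5%). Sites between 0.4 and 0.6 in both libraries were 77 members, 12.1% (9.83 to 14.9%), against 46.3% of ordinary sites (45.2 to 47.4%). Between 0.6 and 0.9 in both lay 115 members, 18.1%, against 3.23% of ordinary sites. Below 0.4 in both lay 54 members, 8.52%, against 16.6% of ordinary sites. With the first member of each run with gaps of up to 1000 bases alone, 92 sites, 26.1% were near-fixed (18.2 to 35.9%) and 19.6% lay between 0.4 and 0.6 (12.7 to 28.8%), so the shares over all members follow the clusters with most of them.

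The median frequency was higher in each deeper class. Coverage is the divisor of the frequency, and neighbouring members are linked, so this is a description. The classes were not recounted with 1 member per run. Of the members with over 200 to 500 reads 12 of 222 were near-fixed in both libraries, and the median frequency was 0.624 in the pool and 0.628 in the progenitor. In the next class, up to 1000 reads, 23 of 62 were near-fixed. In the 3 classes above it, 90 of 95, 95 of 112 and 132 of 143 were. Above 4000 reads the median reached 0.986 in the pool and 0.995 in the progenitor.

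**Figure D2:**
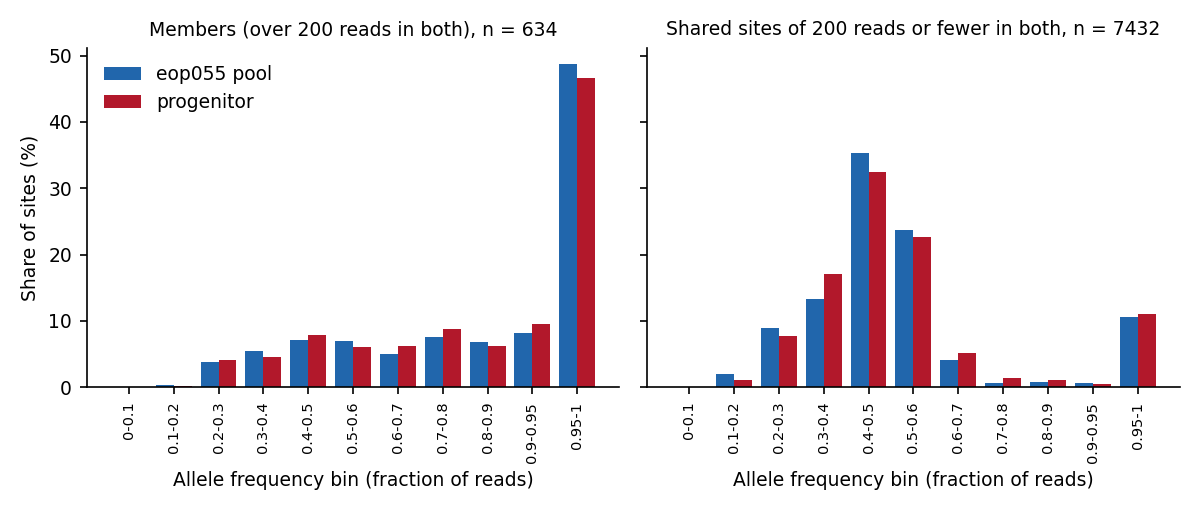
Share of sites (y axis, percent) in bins of allele frequency (x axis, fraction of reads; the last 2 bins are narrower than the others) for the 634 members and the 7432 ordinary sites, in the pool (blue) and the progenitor (red). The members peak above 0.95, whereas the ordinary sites peak between 0.4 and 0.5 with a small second peak above 0.95.

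The kinds of base change differed between the members and ordinary sites when each member was counted. Changes from G to A and from C to T, the kind that alkylating mutagens induce, made up 129 members, 20.3% (17.4 to 23.7%), against 33.1% of ordinary sites (32.0 to 34.2%). The contrast was wider among near-fixed sites, where they were 45 of 352 members, 12.8% (9.69 to 16.7%), and 645 of 804 ordinary sites, 80.2% (77.3 to 82.8%). The opposite transitions, A to G and T to C, made up 155 of the near-fixed members, 44.0% (38.9 to 49.3%), and 6.47% of the near-fixed ordinary sites (4.97 to 8.38%). Most near-fixed ordinary variants thus had the mutagen type of change, and most near-fixed deep variants did not. The first contrast was not seen with 1 member per run, where changes of the mutagen type made up 32 of 92 members, 34.8% (25.8 to 44.9%). Among the 24 near-fixed ones of these 92 they were 10, 41.7% (24.5 to 61.2%), as were the opposite transitions, a count added after the values were seen. Neighbouring members are linked, so no test was applied to these shares.

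Reads with the reference base gave a common measure across the clusters. At the 804 ordinary sites that were near-fixed in both libraries the median depth was 61 pool reads and 59 progenitor reads, and these values are used below as a unit of depth. The unit was chosen after the values were seen, and it stands for the depth of a sequence present once only if those sites are such sequences. All 7432 ordinary sites together had higher medians, 116 pool reads and 111 progenitor reads. The ordinary sites as a whole are thus not a set at 1 unit of depth. In the pool 17 of the 30 clusters had a median of reference-base reads between 0.7 and 1.3 units, although their sample-base reads ran to 78.5 units. In 7 of these 17 the progenitor median lay in the same range. Near-fixed members, whose median coverage was 3117 reads in the pool, had a median of 64 reference-base reads there (interquartile range 56 to 71). In the progenitor, at a median coverage of 5156 reads, they had a median of 45 (29 to 69).

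**Figure D3:**
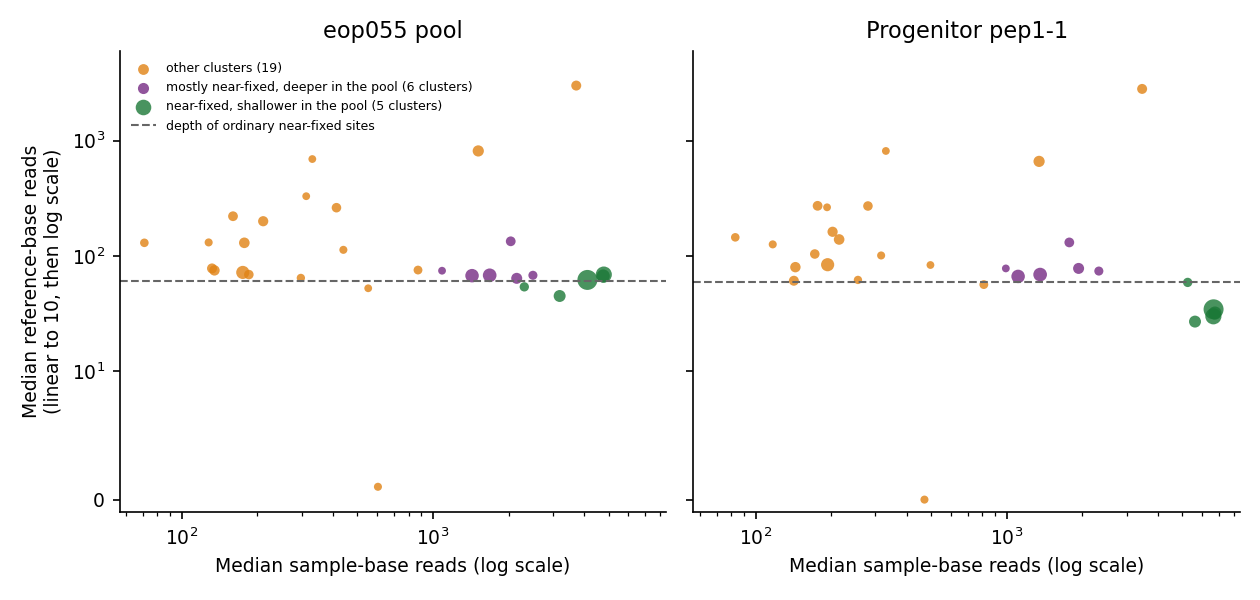
Median sample-base reads (x axis, log scale) and median reference-base reads (y axis, linear to 10 and then log scale) of the 30 clusters in the pool (left) and the progenitor (right), with point areas that grow with the number of members and a dashed line at the median depth of ordinary near-fixed sites (61 and 59 reads). Green clusters lie near the line in the pool, and 4 of the 5 lie below it in the progenitor, while purple clusters lie near or above it in both.

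A first group of 5 clusters, with 205 members, was near-fixed and much shallower in the pool than in the progenitor. The group was formed after the values were seen, from a median log2 ratio of pool to progenitor coverage of -0.4 or less and more than 90% near-fixed members, so its depth and frequency are a description. At ordinary sites the median of this ratio was 0.02. The largest cluster of all, at chr7:13002257-13011895, held 84 members with medians of 4188 pool reads and 6685 progenitor reads. The cluster at chr5:2424111-2431753 had 52 members and medians of 4870 and 6671 reads. That at chr3:13740430-13742249 had 32 members and medians of 4826 and 6757 reads, and that at chr6:18634651-18637134 had 25 members and medians of 3249 and 5629 reads. The smallest, chr4:21300724-21300980, had 12 members and medians of 2369 and 5301 reads. The median log2 ratios of these clusters ran from -1.31 to -0.45, lowest on chromosome 4 and highest on chromosome 5.

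Reference-base reads moved the other way in most of this group. Over the 205 members there was a median of 62 such reads in the pool, with quartiles of 55 and 71. The progenitor had a median of 33, with quartiles of 27 and 45. Cluster medians in the pool were 62 on chromosome 7, 69 on chromosome 5, 67 on chromosome 3, 45 on chromosome 6 and 54 on chromosome 4. The progenitor medians, in the same order, were 34.5, 30, 32, 27 and 59. The 4 larger clusters thus had fewer reference-base reads in the progenitor, and the chromosome 4 cluster did not. Of the 205 members, 120 lay above 6500 reads in the progenitor and 0 did in the pool. The part that the packing of depths below 7340 reads, or a depth limit, plays in these depths, ratios and reference-base counts was not tested.

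The deepest member of each large cluster shows the same pattern. T13011512G on chromosome 7 had 5018 of 5080 reads in the pool (0.988) and 7137 of 7176 in the progenitor (0.995). T13741918G had 5660 of 5751 (0.984) and 6811 of 6832 (0.997). G18634955T on chromosome 6 had 3946 of 4018 (0.982) and 6106 of 6131 (0.996). T2430941C had 5566 of 5632 (0.988) and 6786 of 6815 (0.996). In each the frequency was near 1 in both libraries and lower in the pool by 0.0138 or less.

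Depth changed abruptly inside a cluster at 2 neighbouring sites. C2425292A and A2425298G on chromosome 5, 6 bases apart, had 5505 and 5280 reads in the pool but 794 and 760 in the progenitor. The members on either side, A2424962G and A2425479G, had 3892 and 4867 reads in the pool and 5668 and 4913 in the progenitor. These 2 sites were the only ones of the 205 with more depth in the pool, and they were named after their values were seen. Altogether 44 members differed in depth by 2-fold or more between the libraries. Of these, 35 were shallower in the pool, 34 of them in this group, and 9 were deeper.

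A second group of 6 clusters, with 120 members, was mostly near-fixed and slightly deeper in the pool. It was likewise formed after the values were seen, from a positive median log2 ratio, a median pool coverage over 1000 reads and more than 50% near-fixed members. The cluster at chr4:38312242-38315838 had 35 members and medians of 1750 pool reads and 1426 progenitor reads. The cluster at chr8:37065722-37067293 had 34 members and medians of 1496 and 1178 reads, and that at chr2:7612729-7613377 had 20 members and medians of 2214 and 2010 reads. The other 3, at chr8:46586229-46586657, chr2:33433793-33448553 and chr6:1436005-1436368, had 14, 11 and 6 members. Median log2 ratios ran from 0.15 to 0.25, and 107 of the 120 members were deeper in the pool.

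Over all members of this group reference-base reads had medians of 68.5 in the pool (quartiles 63 and 73) and 74 in the progenitor (quartiles 66 and 79). The cluster medians were furthest apart at chr2:7612729-7613377, with 64 in the pool and 78 in the progenitor. At chr8:46586229-46586657 they were 134 and 131. Single members there had up to 3131 and 2655 such reads, and pool frequencies down to 0.213. Sample-base reads had cluster medians from 17.8 to 41.0 units in the pool. A38315542G on chromosome 4 had 2158 of 2219 reads in the pool (0.973) and 2027 of 2097 in the progenitor (0.967). T37066676G on chromosome 8 had 1629 of 1698 (0.959) and 1509 of 1584 (0.953), and T7612892C on chromosome 2 had 2326 of 2391 (0.973) and 2252 of 2347 (0.960). The frequency was higher in the pool at 112 of the 120 members, with a median difference of 0.0087 over the 120. The group was formed on greater depth in the pool, which bears on this direction, and its members are linked, so this is a description. Of the 120, 0 passed the per-site Fisher's exact test described below, against 3.21% of all shared sites. By the same test 19 had an unadjusted p under 0.05, and the matching share over all shared sites was not counted.

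The other 19 clusters, with 240 members, were mixed in frequency, and 16 of them had medians under 1000 reads in both libraries. The median over the members was 347 reads for the pool and 341 for the progenitor, and the median log2 ratio was -0.02 (interquartile range -0.17 to 0.10). Near-fixed sites were 24 of the 240, and 66 lay between 0.4 and 0.6 in both libraries.

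Stepped allele frequencies were clearest at chr4:19170317-19174007, where 32 members were covered by a median of 257 pool reads and 280 progenitor reads. The members fell into 3 separate levels, which were drawn after the values were seen. At 7 sites the pool frequency ran from 0.238 to 0.282 and the progenitor frequency from 0.218 to 0.276. At 6 sites the pool ran from 0.471 to 0.498 and the progenitor from 0.443 to 0.518. At 19 sites the pool ran from 0.701 to 0.772 and the progenitor from 0.709 to 0.825. In both libraries the 3 levels were separate from each other, and their median sample-base reads in the pool were 1.10, 2.08 and 3 units. In the progenitor these medians were 1.08, 2.24 and 3.61 units. The deepest member, G19173438A, belonged to the lowest level, with 67 of 282 reads in the pool and 76 of 325 in the progenitor.

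A wider spread of frequencies recurred in both libraries at 2 much deeper clusters of these 19. At chr6:14980249-14981417 the 21 members had medians of 2999 pool reads and 2835 progenitor reads. Of these, 7 were near-fixed, with 58 reference-base reads at the lowest, while 3 lay between 0.269 and 0.322 in the pool and between 0.264 and 0.321 in the progenitor. G14981172A, the deepest of the 21, had 1305 of 3314 reads in the pool (0.394) and 1344 of 3353 in the progenitor (0.401). At chr7:32999395-33000386 the 15 members had medians of 6726 and 6473 reads. There 9 lay between 0.403 and 0.590 in the pool and between 0.412 and 0.575 in the progenitor, and 5 were near-fixed. Of the 36 members of these 2 clusters 0 passed the per-site Fisher's exact test, against 3.21% of all shared sites. The differences reached 0.0207 on chromosome 6 and 0.0217 on chromosome 7. Most of the 36 were not near-fixed, and counting error is larger at intermediate frequencies. Differences as small as those called in the first group could therefore go uncalled here. By the same test 3 had an unadjusted p under 0.05, and the matching share over all shared sites was not counted.

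**Figure D4:**
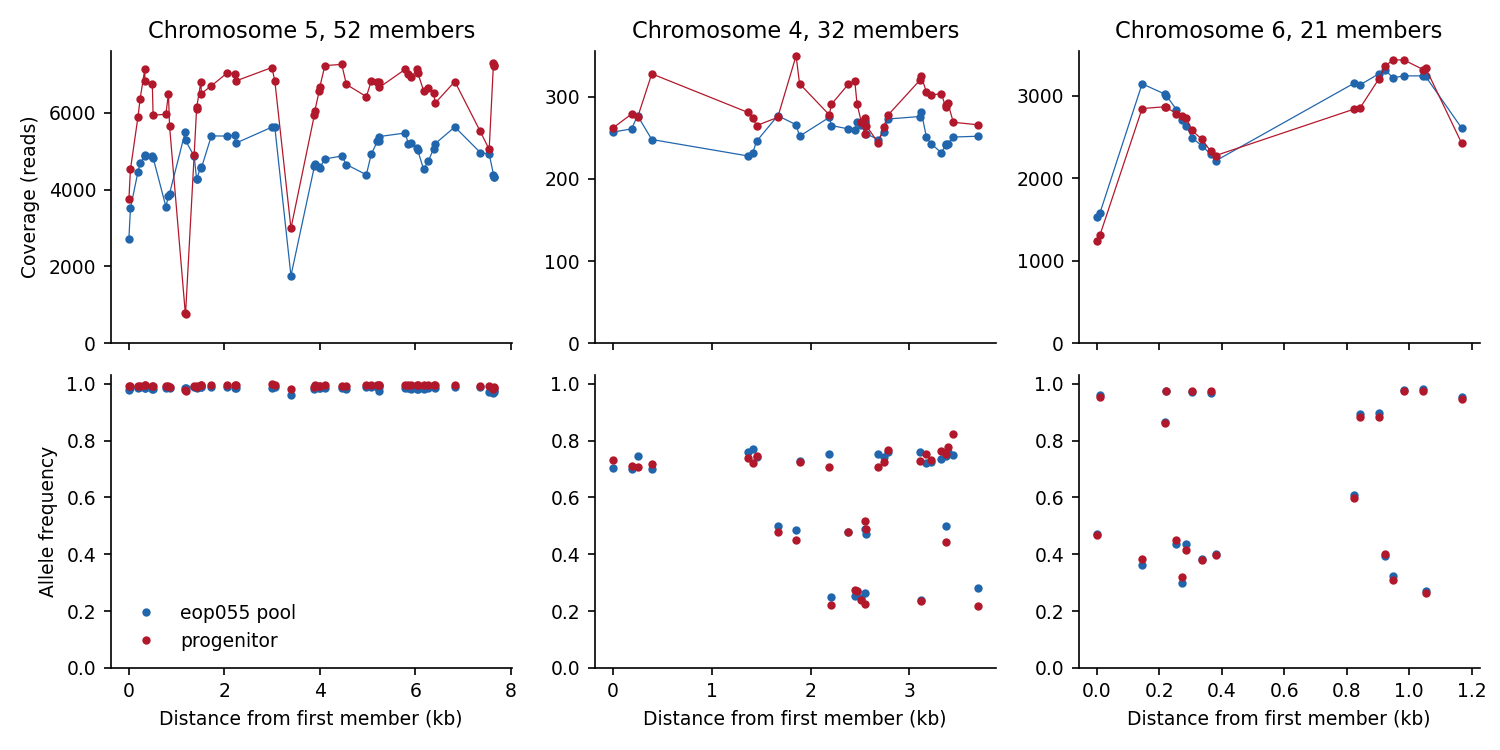
Coverage (top, reads) and allele frequency (bottom) of each member by distance from the first member (x axis, kb) in a near-fixed cluster on chromosome 5, the stepped cluster on chromosome 4 and a deep mixed cluster on chromosome 6, in the pool (blue) and the progenitor (red). On chromosome 5 the progenitor is deeper except at 2 neighbouring sites, on chromosome 4 the frequencies lie on 3 levels in both libraries, and on chromosome 6 near-fixed and lower sites are interspersed.

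The last of the 10 largest clusters, chr2:6965665-6969245, was shallow and mixed. Its 18 members had medians of 347 pool reads and 393 progenitor reads, and pool frequencies spread from 0.284 to 0.792. Its deepest member, A6965982G, had 425 of 541 reads in the pool (0.786) and 455 of 627 in the progenitor (0.726). At chr7:36226031-36226794, named after its values were seen, 7 members had a median of 604 pool reads and 497 progenitor reads. There the median of reference-base reads was 1 for the pool and 0 for the progenitor, and A36226754G was carried by all 604 and all 545 reads. This cluster therefore had deep sites at which the reference base was nearly or entirely absent, unlike the 5 clusters of the first group.

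Allele frequencies were then compared between the libraries site by site. A two-sided Fisher's exact test of the read counts, adjusted by Benjamini-Hochberg over all 9753 shared sites at 0.05, called 190 of the 634 members, 30.0% (26.5 to 33.6%), against a background of 3.21% over all shared sites. That background includes the members, and at ordinary sites the share was 1.21% (0.986 to 1.49%). With 1 member per run of up to 1000-base gaps 9 of 92 were called, 9.78% (5.23 to 17.6%). Over all members, lower in the pool were 182 members, against a background of 2.60%, and higher were 8, against 0.605%. The share called rose with depth, from 8 of 222 members at over 200 to 500 reads to 112 of 143 above 4000. More reads let smaller differences pass. Of the 190 called members 179 lay in the first group of clusters, with medians of 4359 pool reads and 6623 progenitor reads. In the second group, with medians of 1748 and 1508 reads, 0 of 120 were called. In the 2 deep mixed clusters 0 of 36 were called, and most of these were not near-fixed, so counting error was larger there. The rise thus lay mainly in the first group. These groups differ in both depth and frequency, so their counts cannot show what part the number of reads plays, which was not tested. By size the order was the reverse. A difference of 0.1 or more was found at 11 members, 1.74% (0.972 to 3.08%), against a background of 19.9%, with 8 higher (background 9.18%) and 3 lower (10.7%) in the pool. The median absolute difference was 0.012 at the members and 0.049 at ordinary sites. Ordinary sites have fewer reads and so more counting error, and near-fixed members have little room to differ. The sizes therefore do not show that members differ less between the libraries.

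Nearly all called members lay in the first group of clusters. There 179 of 205 were called, all lower in the pool, with a median difference of 0.0107 in size and at most 0.0894. The group was formed on its depth ratio and near-fixed share, and both bear on the direction of such a difference. Its members are also linked within 5 stretches, so this count is a description and not separate evidence. Without that group 11 of 429 members were called, 2.56% (1.44 to 4.53%), against 134 of the 9548 shared sites left, 1.40% (1.19 to 1.66%). Only 13 of the 190 called members differed by 0.05 or more. The 3 other members called lower in the pool were A20656830G on chromosome 2, T11330743C on chromosome 4 and G48282162A on chromosome 8, named after their values were seen. T11330743C had 2314 of 2377 reads in the pool and 5274 of 5325 in the progenitor, and G48282162A had 2183 of 2235 and 4039 of 4084. Both were near-fixed and shallower in the pool, like the first group, but lay outside clusters.

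The 8 members called higher in the pool were all on chromosome 8, in 2 clusters, and were named in part after their values were seen. At chr8:28444087-28444439 the frequency was higher in the pool at all 13 members, and 5 of them were called. A28444087G had 173 of 220 reads in the pool (0.786, 95% interval 0.728 to 0.835) and 116 of 205 in the progenitor (0.566, 0.497 to 0.632), with an adjusted p of 9.8e-05 by Fisher's exact test. C28444106A stood at 0.786 (191 of 243 reads) and 0.618 (147 of 238; adjusted p = 0.00316 by Fisher's exact test). A28444220G stood at 0.824 and 0.696, T28444288C at 0.806 and 0.685, and T28444269C at 0.811 and 0.699. The difference was smallest at T28444439C (0.688 and 0.687), T28444381A (0.534 and 0.532) and C28444215T (0.371 and 0.364). Median reference-base reads numbered 69 for the pool and 104 for the progenitor, and median sample-base reads were 185 and 172. By these medians the libraries differed mainly in reference-base reads. At A28444087G and C28444106A both kinds of read differed, with 47 and 52 reference-base reads in the pool and 89 and 91 in the progenitor.

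The second of these clusters, chr8:20041083-20041225, had 6 members, all at higher frequency in the pool, and 3 were called. A20041225T had 343 of 392 reads in the pool (0.875, 0.839 to 0.904) and 265 of 349 in the progenitor (0.759, 0.712 to 0.801; adjusted p = 0.00264 by Fisher's exact test). A20041195G stood at 0.905 and 0.834, and T20041153C at 0.921 and 0.861. Reference-base reads ran from 49 to 55 in the pool and from 78 to 89 in the progenitor, without overlap. Members of a cluster share reads, so these 8 calls are not 8 separate differences. T28444288C, T28444269C and A20041225T had a variant quality under 25 in the pool.

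**Figure D5:**
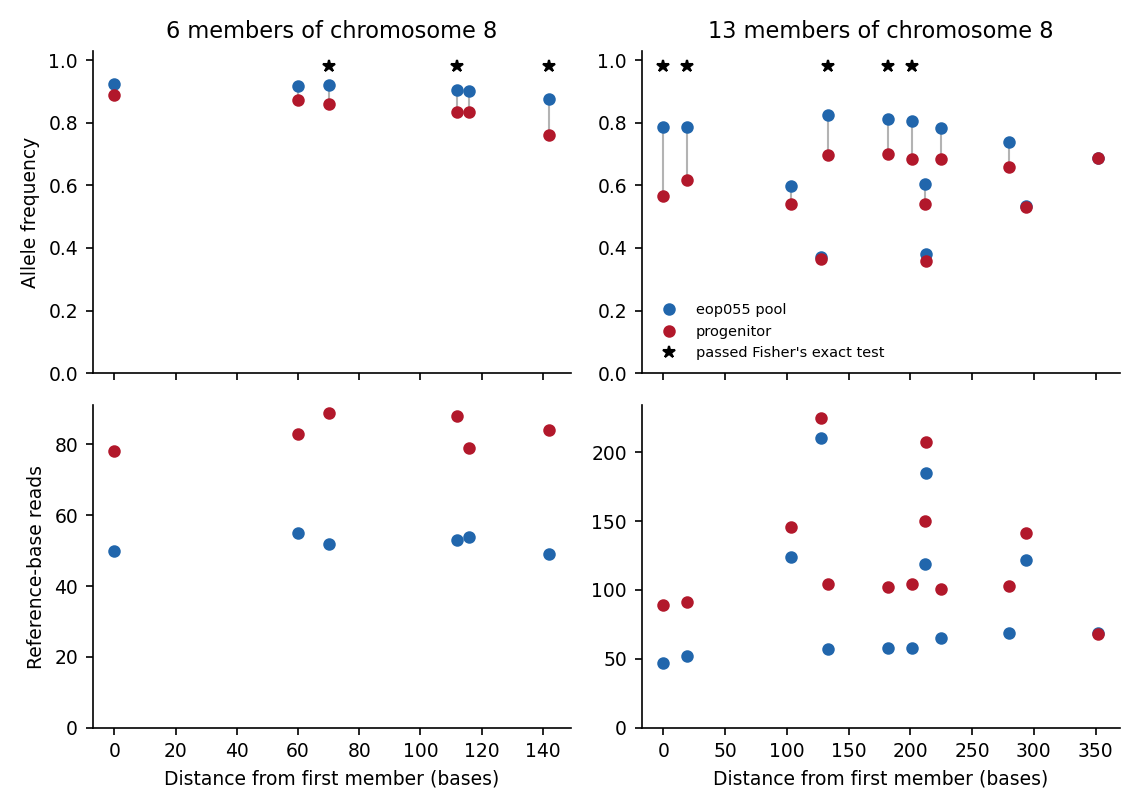
Allele frequency (top) and reference-base reads (bottom) of the 6 members at 20041083 to 20041225 and the 13 members at 28444087 to 28444439 of chromosome 8, by distance from the first member (x axis, bases), in the pool (blue) and the progenitor (red). Grey lines join the libraries, stars mark members that passed Fisher's exact test with an adjusted p under 0.05, and the frequency is higher in the pool at all 19 members.

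The largest falls were smaller and mostly did not pass the test. A20656830G had 128 of 316 reads in the pool (0.405) and 151 of 275 in the progenitor (0.549), with an adjusted p of 0.0206 by Fisher's exact test. G23533831A on chromosome 3 stood at 0.233 and 0.343 (Fisher's exact test, adjusted p = 0.228). C6602495T and G6602489A, 6 bases apart on chromosome 1, stood at 0.599 and 0.589 in the pool and at 0.699 and 0.686 in the progenitor. G20657883T on chromosome 2 stood at 0.4502 and 0.5495. None of these last 3 passed, with adjusted p-values of 0.361, 0.391 and 0.131 by Fisher's exact test.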

How the data were processed

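Both lists were made by the authors, 1 per library, and matched to samples by the genotype in the sheet name. The submitters' processing notes name Bowtie2, SAMtools and DESeq, without version, role or order. The sheet names carry the label V3.6 and, for the progenitor, also V2; the sources used here do not say whether these name an assembly, or which filters were used. In the authors' lists the frequency of the sample base is a fraction. A deposited column headed quality, of whole numbers, was read as the count of sample-base reads; the deposited column headed reads was read as a variant quality score. The count over the frequency, rounded, was the coverage, and gave the listed frequency within 5e-05 at all 14923 pool and 14029 progenitor sites. Among the 634 members a second whole number also did so at 6 sites in the pool and 4 in the progenitor. No quality minimum was applied.

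Shared sites matched in position and base. Fisher's exact test per site was tested on simulated data first. Their starting frequencies lay below the near-fixed range, and their shifts were larger than the difference at any member. Small differences at near-fixed members were therefore not covered by that trial. Wilson intervals (95%) cover counting error only, and PCR duplicates could not be told apart. Named sites were the deepest member of each chromosome and of the 10 largest clusters, the 5 largest differences each way, and 3 sites on each side of the threshold. Members and lists were chosen with earlier results of these data known. Alternatives changed the coverage, quality, frequency, cluster and difference limits. Python 3.11.15, numpy 2.4.6, pandas 2.3.3, scipy 1.17.1, statsmodels 0.14.6 and matplotlib 3.10.9 were used.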

Additional observations from a re-analysis of the deposited data

How the results depend on the processing

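Across the alternatives 54 summary values were recomputed: 22 stayed close to the main value and 32 moved beyond its counting interval or, for counts, beyond 1.5 times. The number of members was 5048 with a coverage over 100 reads, 412 over 500 and 350 over 1000. With over 500 and over 1000 reads respectively, 0% and 0% differed by 0.1 or more, 44.2% and 50.3% passed Fisher's exact test, and 82.5% and 90.6% were near-fixed. In the same order 5.83% and 3.71% lay between 0.4 and 0.6, 14.8% and 14.6% were G-to-A or C-to-T, and the median depth ratio (log2, pool over progenitor, scaled to ordinary sites) was -0.26 and -0.40, against -0.10 for all members. The median allele frequency difference was -0.0068 over 1000 reads, against -0.00515. With 1 member from each run with gaps of up to 1000 bases, 9.78% passed the test, 26.1% were near-fixed, 19.6% lay between 0.4 and 0.6, 34.8% were G-to-A or C-to-T, the median depth ratio was 0.0205 and the median difference was 0.004. Medians over all members are thus carried by the clusters with most members, and both medians changed sign. With a quality of at least 25, 60.6% were near-fixed. Near-fixed members were 62.1% at 0.8 and 45.4% at 0.95. Members between 0.45 and 0.55 were 5.52%, and between 0.35 and 0.65 they were 18.0%. A difference of 0.05 or more was found at 10.9% and of 0.2 or more at 0.158%, and 2.05% passed the test with a difference of 0.05 or more. Without the first group of 5 clusters, an alternative chosen after seeing the data, 2.56% passed the test and 34.7% were near-fixed. Of the 10 sites with the largest differences, 3 were lost at a quality of at least 25 and 7 kept their side of the threshold. No paired analysis was possible because a single library represents each group, which also leaves no replicate to drop.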

Other observations

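Sites with more than 200 reads were also listed in a single library. On the chromosomes the pool list held 900 such sites and the progenitor list 980. Of these, 104 pool sites and 117 progenitor sites were at positions not listed in the other library. The pool-only ones had a median coverage of 484 reads, a median frequency of 0.713 (quartiles 0.418 and 0.928) and a median variant quality of 19.0. The progenitor-only ones had a median coverage of 618 reads, a median frequency of 0.799 (0.428 and 0.986) and a median variant quality of 27.5. Inside the spans of the 30 clusters lay 27 of the pool-only and 59 of the progenitor-only sites. In the 5 near-fixed clusters that were shallower in the pool these counts were 0 and 28. A site can be unlisted through low quality and still hold the base.

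On unplaced sequences a further 223 shared sites, on 78 sequences, had more than 200 reads in both libraries. They were covered by a median of 507 pool reads and 388 progenitor reads, and the median log2 ratio was 0.26, against -0.08 at the members. Of these, 85 were near-fixed in both libraries. Fisher's exact test called 7 of them, 3.14% (Wilson 95% interval 1.53 to 6.34%), all higher in the pool, against a background over all shared sites of 3.21% in either direction and 0.605% higher in the pool.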
